A study of Mus musculus with 26 samples.

Results

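Cells that shrink or swell restore their volume by moving chloride, potassium and sodium, with water following. In all, 9 genes of this machinery are described here, chosen by symbol: the LRRC8 channel subunits Lrrc8a, Lrrc8c and Lrrc8d, the cation-chloride cotransporters Slc12a2 and Slc12a4, and the kinases Wnk1, Stk39, Oxsr1 and Sgk1. The choice was made with earlier results of these data known. All 9 were found among the 20430 gene symbols of the RNA table and also in the footprint table. The material was NIH3T3, an established line of mouse embryonic fibroblasts, profiled by sequencing of polyA-selected RNA (16 libraries in 8 groups) and by ribosome profiling, which sequences the mRNA fragments (footprints) that ribosomes cover (10 libraries in 5 groups). Each group held 2 replicates. The heat experiment had its own control, severe heat of 44 °C for 2 h and mild heat of 42 °C for 8 h. Its labelled samples were RNA only. The other experiment had a control shared by oxidative stress from H2O2 (2 h or 7 h) and osmotic stress from KCl (2 h or 7 h), in both RNA and footprints. No dose of H2O2 or KCl and no origin of the replicates stands in the labels, so the p-values measure only the spread between these samples, which may be technical. The title of the study asks how run-on transcription under stress reaches into neighbouring genes.

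As background, Lrrc8a is the indispensable subunit of the volume-regulated anion channel, which lets chloride and organic osmolytes out of swollen cells, and Lrrc8c and Lrrc8d are partners that set which solutes pass. Slc12a2 (NKCC1) carries sodium, potassium and chloride into the cell and serves to regain volume, whereas Slc12a4 (KCC1) carries potassium and chloride out. Wnk1 is a chloride-sensitive kinase that activates the kinases encoded by Stk39 (SPAK) and Oxsr1 (OSR1), and these phosphorylate the cotransporters, which switches the importer on and the exporters off. Sgk1 is a serum- and glucocorticoid-regulated kinase whose mRNA is known to be short-lived and to respond to hyperosmotic stress.

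In the RefSeq table of assembly GRCm38.p6, Lrrc8a lies on the plus strand at chr2:30237769-30263790 and Sgk1 on the plus strand at chr10:21882184-21999903. Oxsr1 (chr9:119238432-119322684), Slc12a4 (chr8:105943590-105966149), Wnk1 (chr6:119923969-120038695) and Stk39 (chr2:68210445-68472108) lie on the minus strand of their chromosomes. Lrrc8c (chr5:105519345-105613018) and Lrrc8d (chr5:105699963-105815215) are neighbours on the plus strand, 86944 bases apart. Slc12a2 had no entry in the promoter table.

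A set of 5 short motifs was searched on both strands in the 250 bases before each RefSeq transcription start. The cAMP response element TGACGTCA, a palindrome, was found before Lrrc8a and Oxsr1, and before 1.55% of the 32851 listed starts. It is shown because these 2 genes both had higher RNA after 7 h of KCl than in the control. That choice was made after seeing the data. Sgk1 and Wnk1 were also higher at that time and had no such match. After 2 h of KCl, Lrrc8a RNA was lower than in the control (log2 fold change −0.78) and Oxsr1 RNA higher (0.36). A link between the motif and these changes was not tested. Capitals mark the motif, the sequences read 5′ to 3′ on the strand of the gene, and distances count back from the start. The 250 bases before Lrrc8a are chr2:30237519-30237768 and overlap the RefSeq gene 1700084E18Rik. The 30 bases of Oxsr1, chr9:119322428-119322457, lie just before the listed start and within the span of Oxsr1 itself.
Lrrc8a: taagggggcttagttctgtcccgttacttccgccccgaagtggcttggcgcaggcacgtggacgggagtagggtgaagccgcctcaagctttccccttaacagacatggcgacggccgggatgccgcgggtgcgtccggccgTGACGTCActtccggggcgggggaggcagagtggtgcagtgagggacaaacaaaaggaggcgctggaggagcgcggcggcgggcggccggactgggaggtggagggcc
Oxsr1: ttccccggcgtggTGACGTCAgcgcgctgc
The element lay 108 to 101 bases before the start of Lrrc8a and 17 to 10 bases before that of Oxsr1. The core TGGAAA of sites for NFAT5, the tonicity-responsive transcription factor, was found before Stk39 and before 2 of the 6 listed starts of Sgk1, and before 18.6% of all starts. The 30 bases around it, from the most upstream start of Sgk1 (chr10:21882067-21882096, overlapping Gm46215; the core is on the opposite strand and reads TTTCCA here) and from Stk39 (chr2:68472191-68472220), are:
Sgk1: ccttgctttctcTTTCCAtttacctttctg
Stk39: gctcccagcgcgTGGAAActtccctggcgg
The AP-1 motif TGANTCA (6.75% of starts), the antioxidant response element TGACNNNGC (10.2%) and a heat shock element of inverted GAA units (0.466%) were not found in the windows of these genes. A match is a match of letters, not a bound site.

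RNA libraries held 24441877 to 45244430 expected counts and footprint libraries 1460751 to 5168537, with the lowest footprint total in replicate 1 of 2 h of H2O2. The summed TPM of 9 fibroblast markers was 4179 to 11308 per RNA library, led by Vim. Of these, Thy1 (7.60 to 64.2 TPM), Pdgfra (14.55 to 42.25) and Pdgfrb (10.7 to 122) stood at much lower levels. Epithelial markers summed to at most 3.59 TPM, endothelial to 2.38, skeletal muscle to 0.77 and neural to 0.32. Of 4 immune markers, Adgre1 and Cd3e were at 0 in every RNA library and Cd68 reached 44.7 TPM. In bulk libraries, a change in the share of cells that make an mRNA and a change in its amount per cell cannot be told apart. Counts behind the members ran from 57 (Stk39) to 34353 (Sgk1) per RNA library. Among footprints, Stk39 had 7 to 30 counts per library and the other members 57 to 5272, which limits what could be detected there.

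Sgk1 was the most abundant of the 9 mRNAs in both controls, at 304 and 308 TPM (a level corrected for transcript length, scaled to 1000000 per library) in the H2O2/KCl control and at 160.4 and 164 TPM in the heat control. Slc12a4 came next, at a mean of 76.9 TPM in the H2O2/KCl control, followed by Lrrc8c (60.5) and Lrrc8d (60.1), whose libraries overlapped. Wnk1 (41.9) and Oxsr1 (41.2) also overlapped, and below them stood Lrrc8a (32.7), Slc12a2 (18.7) and Stk39 (2.6). Oxsr1 thus stood 14.6- and 17.3-fold above its paralogue Stk39 in the 2 control libraries. Of the control footprints, too, Sgk1 had the highest level (mean 572 TPM) and Stk39 the lowest (4.8 TPM). Lrrc8a ranked higher among footprints (the third, 53.5 TPM) than in RNA.

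**Figure D1:**
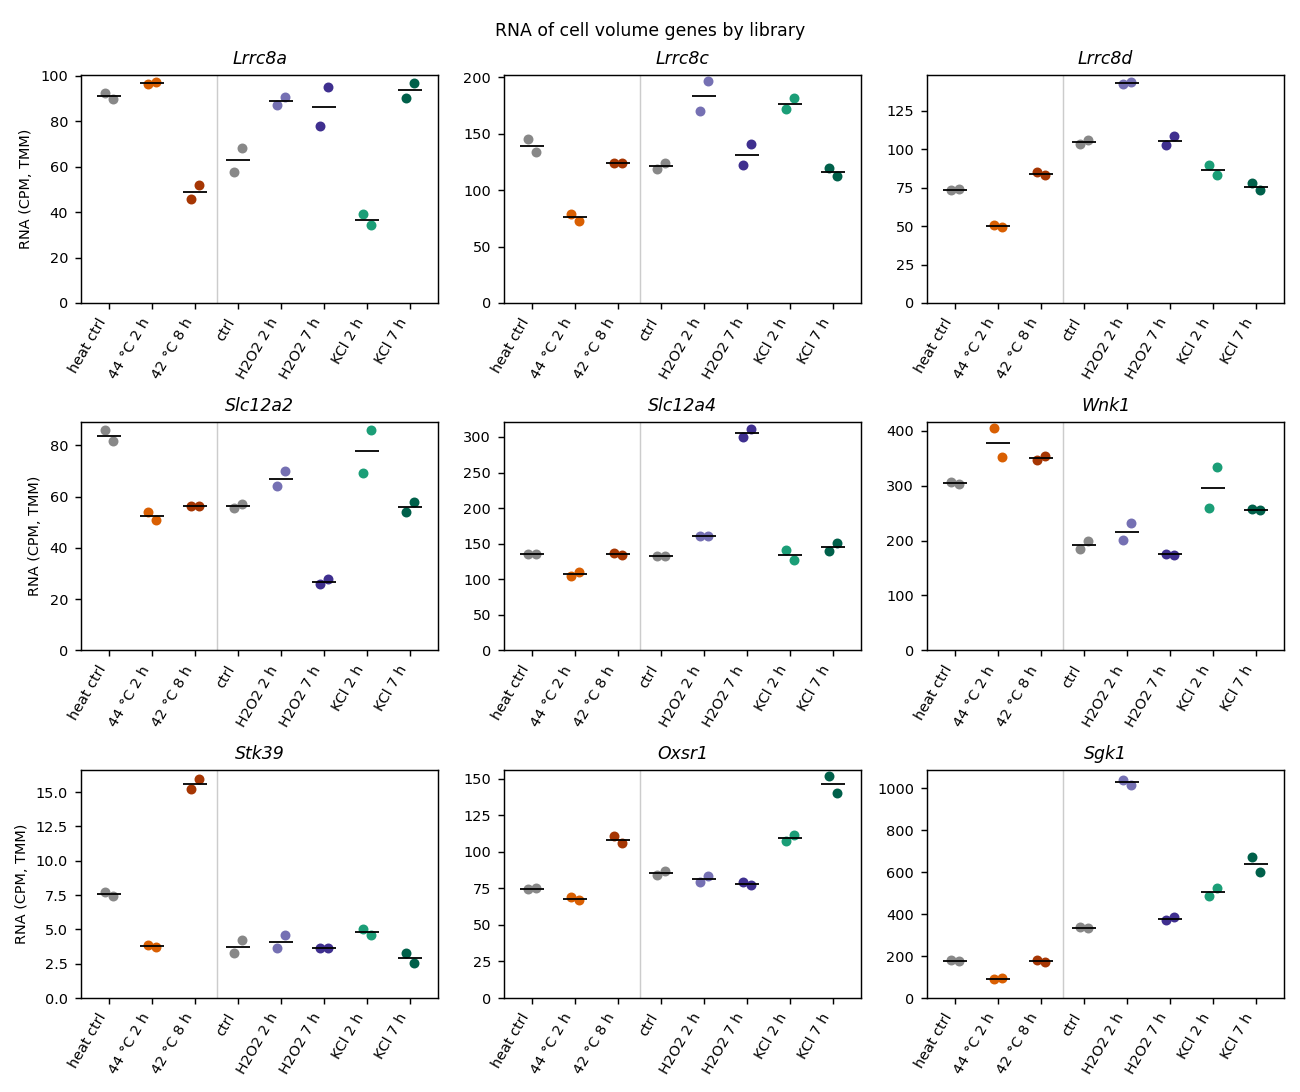
RNA level of each gene (CPM, that is counts per 1000000 after TMM scaling, on a linear axis from 0) in the 8 groups on the horizontal axis; points are libraries and bars are means of 2, with the heat experiment left of the grey line. Sgk1 stands at 1041 and 1015 after 2 h of H2O2, Slc12a4 is highest and Slc12a2 lowest after 7 h of H2O2, and Lrrc8a is low after 2 h of KCl and at 42 °C.

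Severe heat lowered most of these mRNAs, mild heat split them, and H2O2 and KCl moved partly different members. A gene is called changed here where the adjusted p (edgeR quasi-likelihood test, Benjamini-Hochberg over all genes tested) is below 0.05, and all 9 members were tested in every comparison. Heat of 44 °C raised 1 member (Wnk1) and lowered 7, where 35.4% of all genes tested rose and 35.7% fell, and the members' median log2 fold change was −0.56. Heat of 42 °C raised 4 (Stk39, Oxsr1, Wnk1, Lrrc8d) and lowered 3 (Lrrc8a, Slc12a2, Lrrc8c), where 31.7% of genes rose and 31.9% fell, with a median of 0.01. The 42 °C libraries were higher than the 44 °C libraries for 6 members and lower for Lrrc8a, where 37.9% of genes were higher and 37.2% lower. Temperature and time differ together in that comparison and cannot be told apart. The median of all genes tested lay between −0.01 and 0.00 in these 3 comparisons.

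After 2 h of H2O2, 6 members rose (Sgk1, the 3 channel subunits, Slc12a4 and Slc12a2) and 0 fell, where 27.3% of all genes rose and 26.5% fell, and the members' median was 0.27. After 7 h, 3 rose (Slc12a4, Lrrc8a, Sgk1) and Slc12a2 fell, where 39.4% of genes rose and 31.1% fell, with a median of 0.01 against 0.08 for all genes. KCl for 2 h raised 5 members (Wnk1, Sgk1, Lrrc8c, Slc12a2, Oxsr1) and lowered 2 (Lrrc8a, Lrrc8d), where 27.2% of genes rose and 27.0% fell, with a median of 0.36. KCl for 7 h raised 4 (Sgk1, Oxsr1, Lrrc8a, Wnk1) and lowered Lrrc8d, where 37.2% of genes rose and 31.6% fell, with a median of 0.13 against 0.04 for all genes. These 4 comparisons share their 2 control libraries.

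From 2 h to 7 h of H2O2, 1 member rose (Slc12a4) and 5 fell, where 37.3% of genes rose and 36.1% fell. From 2 h to 7 h of KCl, 3 rose (Lrrc8a, Oxsr1, Sgk1) and 4 fell, where 35.1% of genes rose and 33.7% fell. Set against KCl directly, H2O2 for 2 h gave higher RNA for 4 members and lower RNA for 2, where 27.0% of genes were higher and 24.2% lower. The same comparison at 7 h gave 2 higher and 4 lower, where 41.0% of genes were higher and 37.4% lower.

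**Figure D2:**
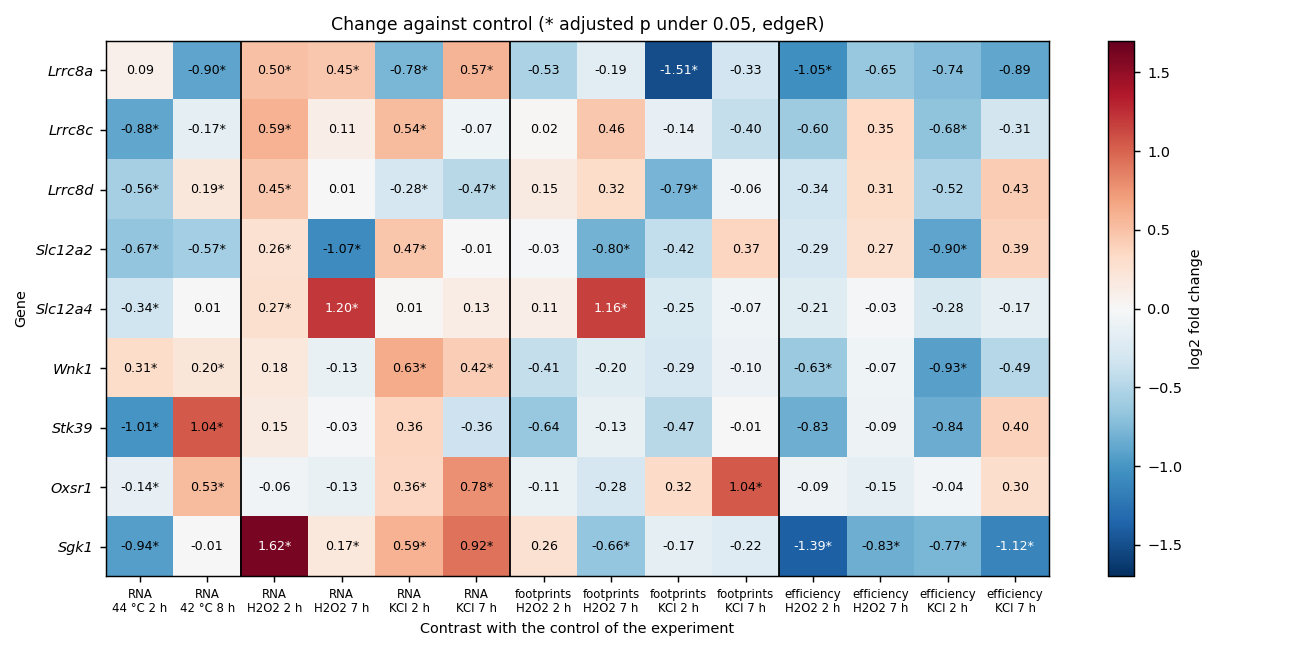
Log2 fold change of each gene (rows) against the control of its experiment (columns: 6 RNA comparisons, 4 of footprints, 4 of translational efficiency), coloured from blue (lower) to red (higher), with an asterisk where the edgeR adjusted p was under 0.05. In RNA, Sgk1 after 2 h of H2O2 is the deepest red (1.62), and in the efficiency columns every asterisk stands on a negative value.

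Among footprints fewer changes passed the test. H2O2 for 2 h gave 0 calls among the members, where edgeR called 1.14% of all genes higher and 0.768% lower. In that comparison 2 members, Lrrc8a and Wnk1, had an unadjusted p under 0.05 (0.0472 and 0.0355, both with lower values), as did 1800 of 10545 genes. DESeq2 and limma on log2(TPM + 1) also called 0 members. H2O2 for 7 h raised Slc12a4 and lowered Slc12a2 and Sgk1, where 17.2% of genes rose and 10.6% fell. KCl for 2 h lowered Lrrc8a and Lrrc8d and raised 0 members, where 1.79% of genes rose and 5.06% fell. KCl for 7 h raised Oxsr1 and lowered 0, where 10.5% rose and 9.83% fell. Between the times of H2O2, 1 member rose and 2 fell (18.7% of genes rose and 11.1% fell). Between the times of KCl, 3 rose (Lrrc8a, Lrrc8d, Slc12a2) and 0 fell (12.1% rose and 8.43% fell).

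Lrrc8a, the indispensable channel subunit, had opposite RNA changes at the 2 times of KCl. Its RNA stood at 57.8 and 68.2 CPM (counts per 1000000 after TMM scaling) in the control, at 39.0 and 34.5 after 2 h of KCl and at 90.4 and 96.8 at 7 h. Both 2 h libraries were below the control and both 7 h libraries above it. The log2 fold change against the control was −0.78 (SE 0.10, adjusted p = 1.89e-05) at 2 h and 0.57 (SE 0.10, adjusted p = 0.00011) at 7 h, and from 2 h to 7 h RNA rose by 1.35 (SE 0.10, adjusted p = 4.3e-08). With H2O2 it stood at 87.2 and 90.7 CPM at 2 h and at 77.7 and 94.95 at 7 h, above the control at both times (0.50 with SE 0.10 and 0.45 with SE 0.10). After 2 h it was 1.28 higher on the log2 scale with H2O2 than with KCl (SE 0.10, adjusted p = 1.83e-07), whereas at 7 h the difference of −0.12 (SE 0.10) was not called (adjusted p = 0.273) except without H2O2 replicate 2 (−0.27, adjusted p = 0.0339).

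Footprints of Lrrc8a stood at 144 and 124 CPM in the control and at 48.6 and 45.5 after 2 h of KCl, a log2 fold change of −1.51 (SE 0.25, adjusted p = 0.00412). Under KCl for 7 h they stood at 135 and 79.1, so that 1 library overlapped the control range and the difference was not called (−0.33, SE 0.24, adjusted p = 0.354). The rise from 2 h to 7 h was 1.18 (SE 0.25, adjusted p = 0.00704). That call was lost without replicate 2 of 2 h of KCl (1.13, adjusted p = 0.0591) or replicate 1 of 7 h (0.75, adjusted p = 0.0873). In the heat experiment Lrrc8a RNA was 92.5 and 89.7 CPM for the control, 96.6 and 97.4 at 44 °C, but 45.7 and 52.1 at 42 °C. It fell at 42 °C (−0.90, SE 0.06, adjusted p = 8.57e-09) and was not called at 44 °C (0.09, SE 0.05, adjusted p = 0.138).

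Lrrc8c, a partner subunit, went the other way from Lrrc8a after 2 h of KCl. It stood at 119 and 124 CPM in the control, at 172 and 182 after 2 h of KCl and at 119 and 113 at 7 h. The rise at 2 h (0.54, SE 0.08, adjusted p = 6.14e-05) was followed by a fall from 2 h to 7 h (−0.61, SE 0.08, adjusted p = 1.3e-05). With H2O2 for 2 h it stood at 170.4 and 196 CPM (0.59, SE 0.08, adjusted p = 2.74e-05), not called as different from KCl at that time by edgeR (0.05, SE 0.08, adjusted p = 0.604). On the log2(TPM + 1) scale that difference was called (0.30, adjusted p = 0.00935), and the TPM libraries did not overlap (92.2 and 105.6 with H2O2, 78.4 and 81.3 with KCl). At 7 h edgeR did not call H2O2 (0.11, adjusted p = 0.231) or KCl (−0.07, adjusted p = 0.484) against the control. Nor was their difference called (H2O2 minus KCl 0.18, SE 0.08, adjusted p = 0.0596). The log2(TPM + 1) scale called H2O2 higher (0.23, adjusted p = 0.0214) and KCl lower (−0.20, adjusted p = 0.0463). It called their difference too (0.43, adjusted p = 0.00049), as did fits with no count filter, a replicate block or only the groups compared. At 44 °C Lrrc8c fell from 145 and 134 CPM to 79.1 and 72.8 (−0.88, SE 0.05, adjusted p = 2.51e-09). The fall at 42 °C was small (−0.17, SE 0.05) and lost its call without either 42 °C replicate (adjusted p = 0.056 without replicate 1, 0.0504 without replicate 2) or without control replicate 1 (0.144).

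Lrrc8d, the partner linked to the passage of larger organic solutes, had 103 and 106 CPM in the control, 89.5 and 83.1 after 2 h of KCl and 77.8 and 73.7 at 7 h. The KCl libraries were all below the control (−0.28 with SE 0.06 at 2 h, adjusted p = 0.00138; −0.47 with SE 0.06 at 7 h, adjusted p = 9.9e-06). H2O2 for 2 h raised it to 143 and 144 CPM (0.45, SE 0.06, adjusted p = 2.14e-05), and after 7 h it was back among the control values (103 and 109). Its footprints after 2 h of KCl were 32.5 and 43.8 CPM against 63.3 and 68.7 in the control (−0.79, SE 0.20, adjusted p = 0.0323). That call was lost by DESeq2 (adjusted p = 0.0514) and without any 1 of the 4 libraries (adjusted p between 0.0579 and 0.269). At 7 h of KCl the footprints were near the control, at 60.9 and 65.2 CPM (−0.06, SE 0.19, adjusted p = 0.842). From 2 h to 7 h of KCl they were called higher (0.73, SE 0.20, adjusted p = 0.023). The RNA was called lower between these times (−0.19, SE 0.06, adjusted p = 0.0153). Both calls were lost without some single libraries. Heat at 44 °C lowered the RNA from 73.2 and 74.2 CPM to 50.6 and 49.2 (−0.56, SE 0.04, adjusted p = 5.39e-08). At 42 °C it was slightly higher (0.19, SE 0.04, adjusted p = 0.00126), a change that was not called on the log2(TPM + 1) scale (0.00, adjusted p = 0.989). There, all genes had a median of −0.16.

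The relative level of the 5 LRRC8 mRNAs differed between the groups. In the control, Lrrc8a made up 17.6% and 20% of the summed LRRC8 TPM, Lrrc8c 35.3% and 34.5%, and Lrrc8d 35.0% and 34.3%. Under KCl for 2 h the share of Lrrc8a was 12% and 10.9% and that of Lrrc8c 49.7% and 52.3%, while at 7 h Lrrc8a held 28.9% and 30.7%. Neither KCl time overlapped the control in its Lrrc8a share. Heat at 44 °C gave Lrrc8a shares of 36.5% and 37.9%, against 25.5% and 25.4% in the heat control and 15.7% and 17.6% at 42 °C. In footprints the Lrrc8a share was 34.5% and 32.3% in the control, 19.4% and 18.0% after 2 h of KCl and 37.8% and 28.3% at 7 h. Lrrc8b, a further partner, made up 1.2% and 1.11% of the RNA sum after 7 h of KCl and 5.51% and 5.17% in the control.

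**Figure D3:**
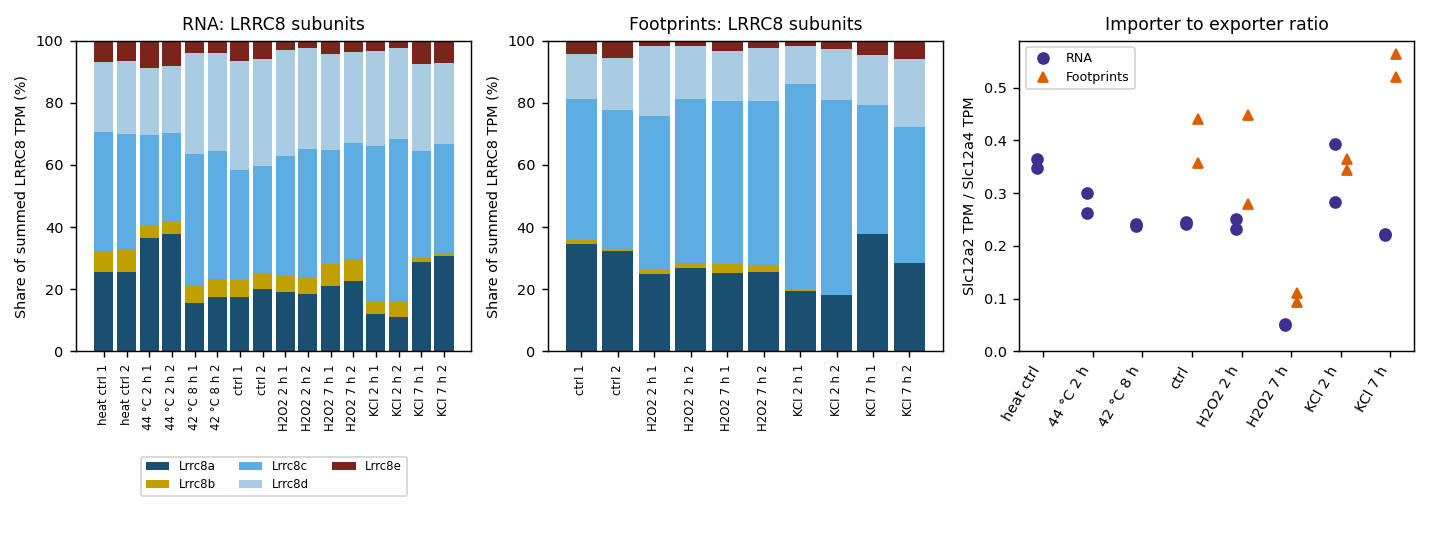
Left and middle: share of each LRRC8 subunit in the summed LRRC8 TPM of a library (stacked bars, percent; 1 bar per library) in RNA and in footprints. Right: TPM of Slc12a2 divided by TPM of Slc12a4 in each library (circles RNA, triangles footprints, shown for the H2O2/KCl experiment). The Lrrc8a share is lowest after 2 h of KCl in both assays, and the ratio drops to 0.050 and 0.052 in RNA after 7 h of H2O2.

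The importer Slc12a2 and the exporter Slc12a4 moved in opposite directions after 7 h of H2O2. Slc12a2 RNA stood at 55.4 and 56.9 CPM in the control and at 25.8 and 27.9 at 7 h, while Slc12a4 stood at 133 in both control libraries and at 299 and 311 at 7 h. Neither gene's 7 h libraries overlapped those of any other group of that experiment. The log2 fold change was −1.07 (SE 0.09, adjusted p = 1.48e-07) for Slc12a2 and 1.20 (SE 0.06, adjusted p = 6.47e-10) for Slc12a4. Against KCl at 7 h, Slc12a2 was lower by 1.06 (log2 difference −1.06, SE 0.10, adjusted p = 1.32e-07) and Slc12a4 higher by 1.07 (SE 0.06, adjusted p = 1.54e-09). The ratio of Slc12a2 to Slc12a4 TPM was 0.241 and 0.245 in the RNA control and 0.050 and 0.052 after 7 h of H2O2.

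Footprints showed the same opposite changes after 7 h of H2O2. Those of Slc12a4 rose from 160 and 149 CPM to 356 and 336 (1.16, SE 0.19, adjusted p = 0.000649), a call kept under every alternative run. Those of Slc12a2 fell from 77.8 and 59.1 CPM to 44.1 and 34.6 (−0.80, SE 0.23, adjusted p = 0.0211). The Slc12a2 call was lost without replicate 2 of 7 h (−0.68, adjusted p = 0.149) or without control replicate 1 (−0.63, adjusted p = 0.131), and on the log2(TPM + 1) scale (−0.64, adjusted p = 0.121). The footprint TPM ratio of the pair was 0.440 and 0.356 in the control and 0.111 and 0.093 at 7 h.

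At earlier times the cotransporters moved less. Slc12a2 RNA stood at 64.0 and 70.0 CPM after 2 h of H2O2 (0.26, SE 0.09, adjusted p = 0.0249), a call lost without replicate 2 of 2 h (0.19, adjusted p = 0.186) or either control replicate (adjusted p = 0.121 and 0.072). From 2 h to 7 h of H2O2 it fell by 1.32 (SE 0.09, adjusted p = 1.58e-08). With KCl it was higher at 2 h (69.2 and 86.0 CPM, 0.47, SE 0.09, adjusted p = 0.000486). At 7 h it was near the control (54.0 and 57.8 CPM, −0.01, SE 0.09, adjusted p = 0.96). From 2 h to 7 h the RNA fell (−0.47, SE 0.09, adjusted p = 0.000334). Slc12a2 footprints rose between these times (0.79, SE 0.23, adjusted p = 0.0305). They stood at 53.7 and 48.7 CPM at 2 h and 97.7 and 79.1 at 7 h, with 77.8 and 59.1 in the control. Neither time was called against the control (adjusted p = 0.347 and 0.272). The rise lost its call on the log2(TPM + 1) scale (0.76, adjusted p = 0.0813) and without each library of these groups (0.63 to 0.93). Slc12a4 was slightly higher after 2 h of H2O2 (160.4 and 161 CPM; 0.27, SE 0.06, adjusted p = 0.00251) and was not called at either time of KCl. Both heat conditions lowered Slc12a2, from 85.8 and 81.5 CPM to 54.1 and 50.7 at 44 °C (−0.67, SE 0.05) and to 56.2 and 56.4 at 42 °C (−0.57, SE 0.05). Slc12a4 fell at 44 °C (−0.34, SE 0.04). At 42 °C it was not called by edgeR (0.01, SE 0.04, adjusted p = 0.912). On the log2(TPM + 1) scale it was called lower (−0.18, adjusted p = 0.00319), where all genes had a median of −0.16.

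Wnk1, the kinase at the head of the cascade, was the one member higher at 44 °C, at 404 and 352 CPM against 307 and 302 in the control (0.31, SE 0.05, adjusted p = 0.000115). At 42 °C it stood at 347 and 353 (0.20, SE 0.05, adjusted p = 0.00479). It was not called on the log2(TPM + 1) scale (0.01, adjusted p = 0.901), where all genes had a median of −0.16. KCl raised Wnk1 RNA from 184 and 198 CPM to 259 and 333 at 2 h (0.63, SE 0.10, adjusted p = 8.7e-05) and to 257 and 255 at 7 h (0.42, SE 0.10, adjusted p = 0.00153). With H2O2 it was not called at 2 h (200.4 and 232 CPM) or 7 h (175 in both), though with only the groups compared the 7 h value was called lower (−0.19, adjusted p = 0.00737). KCl libraries were above H2O2 libraries at 2 h (H2O2 minus KCl −0.45, SE 0.10, adjusted p = 0.0015) and at 7 h (−0.55, SE 0.10, adjusted p = 0.000137). Wnk1 footprints stood between 104 and 155 CPM in all groups and were not called against the control at any time.

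Oxsr1, the more abundant of the kinases that Wnk1 activates, rose with KCl. Its RNA stood at 84.0 and 86.7 CPM in the control, 107 and 112 after 2 h of KCl and 152 and 140.4 at 7 h, with no overlap between the 3 groups. The log2 fold change was 0.36 (SE 0.06, adjusted p = 0.000197) at 2 h and 0.78 (SE 0.06, adjusted p = 5.78e-08) at 7 h, and the step from 2 h to 7 h was also called (0.42, SE 0.06, adjusted p = 2.63e-05). With H2O2 it stood at 79.5 and 83.8 CPM at 2 h and 79.1 and 77.3 at 7 h, and edgeR called neither time. All 4 libraries were below the control. The 7 h value was called lower in 4 alternatives: DESeq2 (−0.16, adjusted p = 0.0466), log2(TPM + 1) (−0.19, adjusted p = 0.0163), only the groups compared (−0.18, adjusted p = 0.00666) and without 7 h replicate 1 (−0.22, adjusted p = 0.0289). In the heat experiment Oxsr1 rose at 42 °C from 74.8 and 75.0 CPM to 111 and 106 (0.53, SE 0.04, adjusted p = 1.42e-07). The small fall at 44 °C (−0.14, SE 0.04, adjusted p = 0.0118) lost its call without 44 °C replicate 2 (−0.12, adjusted p = 0.0573) and on the log2(TPM + 1) scale (−0.07, adjusted p = 0.253).

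Footprints of Oxsr1 rose after 7 h of KCl from 34.5 and 45.1 CPM to 67.6 and 95.02 (1.04, SE 0.25, adjusted p = 0.0119). The call was lost without control replicate 1 (0.86, adjusted p = 0.0862) or without 7 h replicate 2 (0.77, adjusted p = 0.126). For this gene the deposited footprint TPM and the CPM moved by different amounts: the mean after 7 h of KCl was 2.92 times the control in TPM and 2.04 times in CPM. With H2O2 for 7 h they differed in direction, at 1.19 times in TPM and 0.821 times in CPM, and neither was called.

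Stk39, at a low level, responded to heat in opposite directions. Its RNA stood at 7.74 and 7.43 CPM in the heat control, 3.84 and 3.71 at 44 °C, but 15.2 and 15.97 at 42 °C, with no overlap between groups. It fell at 44 °C (−1.01, SE 0.10, adjusted p = 5.76e-07), rose at 42 °C (1.04, SE 0.08, adjusted p = 9.67e-08) and differed between them by 2.04 (SE 0.10, adjusted p = 1.41e-10). The ratio of Oxsr1 to Stk39 TPM was accordingly 12.4 and 12.6 at 44 °C and 5.11 and 4.64 at 42 °C, against 6.66 and 6.95 in the heat control. With H2O2 and KCl, Stk39 RNA stood between 2.52 and 5.02 CPM and was not called against the control at any time by edgeR with all libraries. At 7 h of KCl it was called lower on the log2(TPM + 1) scale (−0.35, adjusted p = 0.0223), without control replicate 1 (−0.53, adjusted p = 0.0344) and without 7 h replicate 1 (−0.57, adjusted p = 0.0487). At 2 h of KCl it was called higher without control replicate 2 (0.53, adjusted p = 0.0359). Its fall from 2 h to 7 h of KCl was called (5.02 and 4.57 CPM to 3.25 and 2.52; −0.72, SE 0.18, adjusted p = 0.00307).

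Sgk1 had the largest RNA change of the 9 genes against a control. With H2O2 for 2 h it stood at 1041 and 1015 CPM, against 340 and 331 in the control, which is 3.07-fold (log2 1.62, SE 0.07, adjusted p = 2.09e-10). By 7 h it was at 370 and 387 CPM, a fall of 1.44 from 2 h (log2 −1.44, SE 0.07, adjusted p = 1.78e-10). The remaining difference from the control at 7 h (0.17, SE 0.07, adjusted p = 0.0325) lost its call by DESeq2 (adjusted p = 0.0699) and without any 1 of the 4 libraries (adjusted p between 0.0728 and 0.225). With KCl it rose to 487 and 524 CPM at 2 h (0.59, SE 0.07, adjusted p = 4.72e-06) and to 674 and 599 at 7 h (0.92, SE 0.07, adjusted p = 3.06e-08). The order of H2O2 and KCl turned between the times, from 1.02 higher with H2O2 at 2 h (SE 0.07, adjusted p = 2.62e-08) to a difference of −0.75 at 7 h (SE 0.07, adjusted p = 1.15e-07). Heat at 44 °C lowered Sgk1 from 180 and 176 CPM to 91.8 and 93.6 (−0.94, SE 0.04, adjusted p = 2.74e-10). At 42 °C it stood at 181 and 172 (−0.01, SE 0.04, adjusted p = 0.83). On the log2(TPM + 1) scale it was called lower (−0.20, adjusted p = 0.00117), where all genes had a median of −0.16.

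The footprints of Sgk1 were not called higher at any time, whereas its RNA was called higher at each. They stood at 719 and 723 CPM in the control and at 705 and 1023 after 2 h of H2O2, where the shallower library lay just below the control and the deeper one above (0.26, SE 0.20, adjusted p = 0.532). After 7 h they stood at 474 and 438 (−0.66, SE 0.20, adjusted p = 0.0248). That call was lost without any 1 of the 4 libraries (adjusted p between 0.0628 and 0.122). The fall from 2 h to 7 h of H2O2 (−0.92, SE 0.20, adjusted p = 0.00397) was kept under every alternative run. Under KCl they stood at 646 and 635 CPM after 2 h and 561 and 674 after 7 h, below the control in each library but not called.

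**Figure D4:**
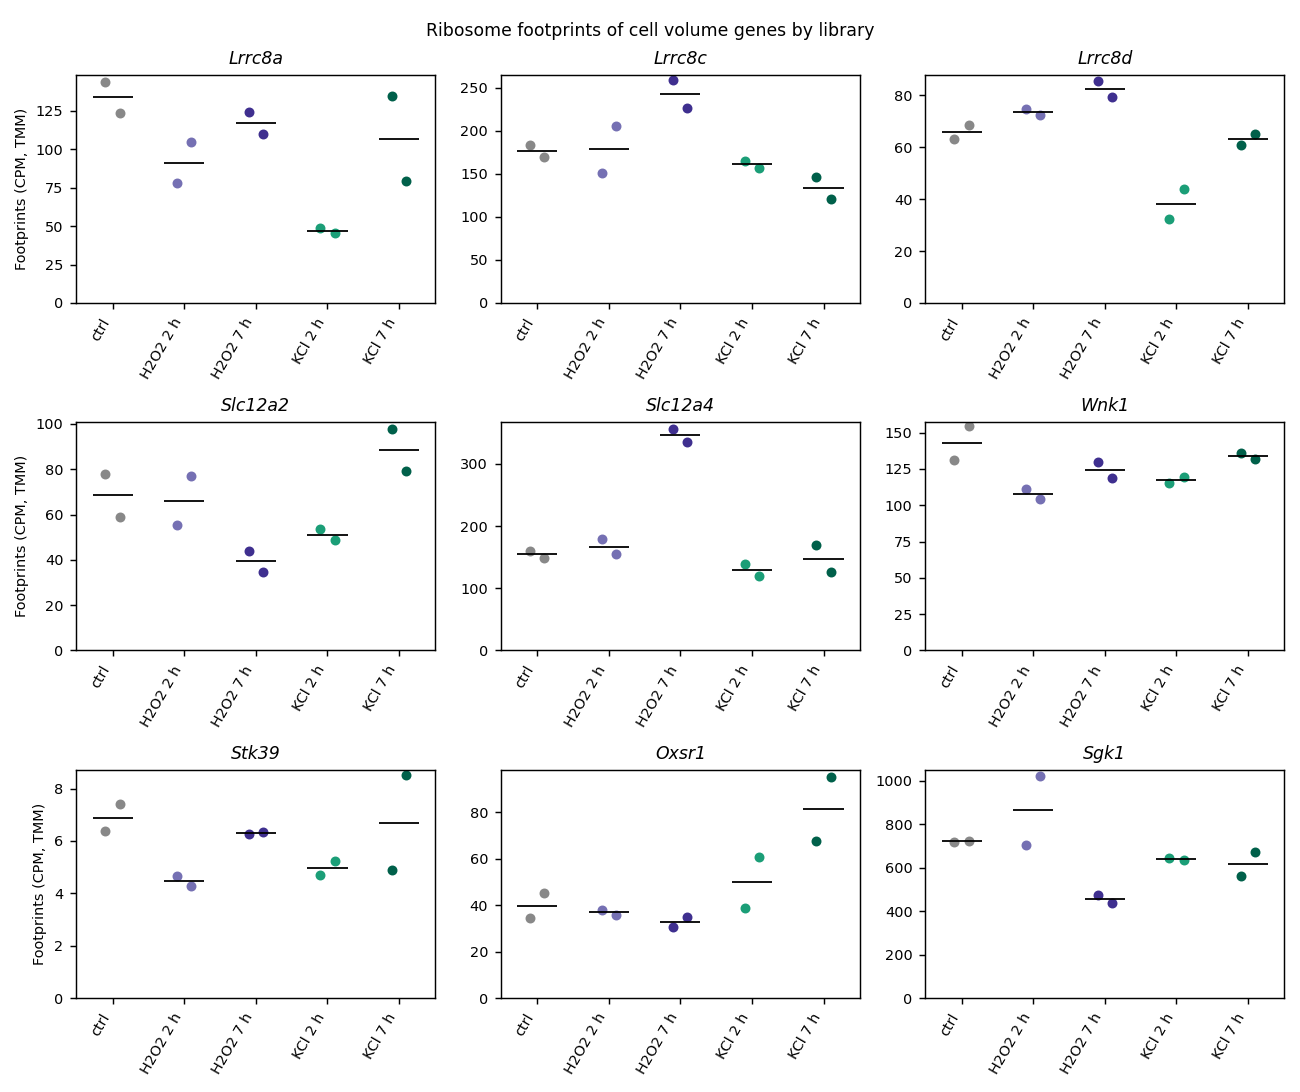
Ribosome footprints of each gene (CPM, that is counts per 1000000 after TMM scaling, on a linear axis from 0) in the 5 groups of the H2O2/KCl experiment; points are libraries and bars are means of 2. Slc12a4 is highest after 7 h of H2O2, Lrrc8a lowest after 2 h of KCl and Oxsr1 highest after 7 h of KCl, while the 2 Sgk1 libraries after 2 h of H2O2 stand apart at 705 and 1023.

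Translational efficiency (footprints relative to RNA of the same gene) was tested as an interaction over the 20 libraries of the H2O2/KCl experiment. In the 4 comparisons with the control, edgeR called 0 members higher. DESeq2 called 1 higher, Lrrc8d after 7 h of KCl (0.44, adjusted p = 0.0315), where the edgeR test did not call it. H2O2 for 2 h lowered 3 (Sgk1, Lrrc8a, Wnk1), where 3.98% of all genes were called higher and 7.46% lower. H2O2 for 7 h lowered 1 (Sgk1), where 4.69% were higher and 4.57% lower. KCl for 2 h lowered 4 (Wnk1, Slc12a2, Sgk1, Lrrc8c), where 3.58% were higher and 9.18% lower, and KCl for 7 h lowered 1 (Sgk1), where 1.69% were higher and 3.88% lower. The log2 change was below 0 for 9 of 9 members after 2 h of both stresses, for 6 after 7 h of H2O2 and for 5 after 7 h of KCl. The members' median was −0.60 after 2 h of H2O2 and −0.74 after 2 h of KCl, against −0.01 and −0.02 for all genes tested. Lower values were not particular to the members. Of the 44 related genes described below, 33 were tested here, with medians of −0.21 and −0.40 at these times. Called higher and lower among them were 1 and 3 after 2 h of H2O2 and 0 and 7 after 2 h of KCl. The 4 comparisons share their control libraries, so 1 set of control footprints and RNA enters them all.

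Sgk1 efficiency was called lower in each of the 4 comparisons. The mean footprint TPM over the mean RNA TPM was 1.87 in the control, 0.702 at 2 h and 1.19 after 7 h of H2O2, and 1.14 at 2 h and 0.887 after 7 h of KCl. The log2 change was −1.39 (SE 0.21, adjusted p = 0.000529) after 2 h of H2O2 and −1.12 (SE 0.21, adjusted p = 0.00445) after 7 h of KCl, both kept under every alternative run. It was −0.83 (SE 0.21, adjusted p = 0.0185) after 7 h of H2O2 and −0.77 (SE 0.21, adjusted p = 0.0199) after 2 h of KCl. These last 2 calls were lost without either RNA control replicate (adjusted p = 0.0586 and 0.0705 for H2O2; 0.0563 and 0.0655 for KCl). At 7 h of H2O2 the call was also lost without RNA replicate 1 (0.0541), RNA replicate 2 (0.0733) or footprint replicate 2 (0.0594) of that group. At 2 h of KCl it was lost without RNA replicate 2 (0.0729) or footprint replicate 2 (0.0621).

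Wnk1 efficiency after 2 h of KCl, where its RNA was higher and its footprints were not, changed by −0.93 (SE 0.19, adjusted p = 0.00326), a call kept under every alternative run. At 2 h of H2O2 the change of −0.63 (SE 0.19, adjusted p = 0.038) was lost in 8 alternatives, among them limma voom (adjusted p = 0.105) and leaving out either footprint replicate of that group (0.0502 and 0.0725). Lrrc8a efficiency was not called by edgeR after 7 h of H2O2 (−0.65, adjusted p = 0.13). It was not called after 2 h (−0.74, adjusted p = 0.0867) or 7 h of KCl (−0.89, adjusted p = 0.0567) either. DESeq2 (−0.88, adjusted p = 0.0311) and the fits with no count filter or a replicate block called this last value lower. After 2 h of H2O2 Lrrc8a efficiency changed by −1.05 (SE 0.26, adjusted p = 0.0166). This was lost without RNA replicate 2 (0.0599) or footprint replicate 1 (0.0506) of 2 h of H2O2, or without replicate 1 of the control RNA (0.0773) or footprints (0.0552). With KCl for 2 h, Slc12a2 (−0.90, SE 0.24, adjusted p = 0.0187) and Lrrc8c (−0.68, SE 0.20, adjusted p = 0.0349) lost their calls in 6 and 8 alternatives.

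A list of 44 related genes, in 4 groups, gives the surroundings of these members, and 40 were tested in RNA. The list was chosen with earlier results of these data known. Its counts are therefore not independent of that choice, and the shares of all genes are given for scale only. Called higher and lower were 15 and 13 at 44 °C, 15 and 14 at 42 °C, 16 and 6 after 2 h of H2O2, 13 and 16 after 7 h of H2O2, 18 and 6 after 2 h of KCl, and 18 and 10 after 7 h of KCl. After 2 h of KCl, where 27.2% of all genes rose and 27.0% fell, the other anion channels had 3 of 7 tested genes higher and 1 lower, the other cotransporters 1 of 6 higher and 1 lower, the kinase pathway 6 of 16 higher and 3 lower, and other ion and water pathways 8 of 11 higher and 1 lower. After 7 h of KCl, where 37.2% rose and 31.6% fell, the same groups had 2 higher and 2 lower, 2 and 0, 7 and 5, and 7 and 3. Their median log2 fold changes at 7 h were −0.07, 0.19, 0.26 and 0.72. At 7 h of KCl the related gene with the highest called change was Atp1b1, a beta subunit of the sodium-potassium pump (2.75, SE 0.08). Its mean TPM was 22.9 in the control and 144 at 7 h. Atp1b3, another beta subunit, had 238 and 609 TPM. The lowest called change was that of Lrrc8b (−2.22, SE 0.11, 9.25 to 1.75 TPM).

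At 2 h of KCl the extremes were 2 members of the TSC22 domain family, whose proteins have been linked to WNK signalling. Tsc22d2 was highest (2.08, SE 0.09; 19.4 to 64.9 TPM) and Tsc22d3, a glucocorticoid-induced gene also known as Gilz, was lowest (−1.77, SE 0.12; 15.7 to 4.31 TPM). H2O2 for 7 h left the water channel Aqp1 lowest (−1.40, SE 0.06; 252 to 90.1 TPM) and Slc12a8 highest (1.48, SE 0.51), though at 0.125 and 0.315 TPM. For H2O2 at 2 h the extremes were Slc12a3, the thiazide-sensitive sodium-chloride cotransporter of the kidney (3.38, SE 0.73, at 0.045 and 0.35 TPM), and Tsc22d4 (−0.84, SE 0.06; 61.6 to 34.4 TPM). Slc12a3 was also highest at 44 °C (2.07, SE 0.58, at 0.11 and 0.445 TPM), with Lrrc8b lowest (−1.33, SE 0.07; 13.0 to 5.3 TPM). At 42 °C the potassium channel gene Kcnk5 was highest (1.32, SE 0.10; 2.65 to 5.81 TPM) and Klhl3 lowest (−1.23, SE 0.51), at 0.235 and 0.085 TPM. Slc12a3, Slc12a8 and Klhl3 thus rest on very low levels.

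Over the 16 RNA libraries, with each library's log2 CPM centred on its experiment, the gene outside the list most like each member was picked from 9107 candidates by Pearson's r. These libraries share conditions and depth, so r is given as a description. For the channels it was Zfp84 for Lrrc8a (0.965), Casc4 for Lrrc8c (0.919) and Rab32 for Lrrc8d (0.938). The cotransporters gave Txndc16 for Slc12a2 (0.970) and Cgref1 for Slc12a4 (0.983). The kinases gave Med13 for Wnk1 (0.968), Anxa3 for Stk39 (0.973) and Cgnl1 for Oxsr1 (0.983). Sgk1 had the least close neighbour, Gapvd1 (0.880).

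The authors also deposited, per RNA library and per pair of neighbouring genes, calls of DoGs (transcripts that run on downstream of a gene) and of read-in (run-on transcription that enters the downstream gene). DoGs were called in 19.4% to 35.7% of pairs per library and read-in in 0.547% to 2.95%. Slc12a4 had a DoG call towards Lcat, its downstream neighbour 187 bases away in RefSeq, in 15 of 16 libraries, controls included. Read-in to Lcat was called in 14 of 16. The exceptions were replicate 1 of the heat control, with neither call, and replicate 1 of 7 h of KCl, with a DoG call alone. The deposited read-in estimate, a ratio whose formula no source used here gives, was 0.604 and 0.601 in the H2O2/KCl control, 0.718 and 0.773 after 2 h of H2O2 and 1.08 and 1.39 after 2 h of KCl. Lcat itself had 6.70 and 5.93 TPM in that control, 16.8 and 16.03 after 2 h of H2O2 and 17.45 and 13.5 after 2 h of KCl. At 7 h of H2O2, where Slc12a4 RNA was highest, the estimate was 0.764 and 0.969 and Lcat stood at 12.9 and 11.9 TPM. KCl for 7 h went the other way: the estimate was 0.983 and 1.63, but Lcat, at 3.71 and 4.40 TPM, was below the control. For the heat control the estimate was 0.371 and 0.809 (Lcat 5.35 and 4.55 TPM). Severe heat gave 1.30 and 1.14 (10.7 and 11.7 TPM), mild heat 0.82 and 1.31 (10.9 and 10.8 TPM). A link between the estimate and the Lcat level was not tested.

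Lrrc8a had a DoG and a read-in call towards Phyhd1, 2412 bases away, in 1 of 16 libraries (replicate 1 of 2 h of H2O2). The estimate was 0 in both H2O2/KCl controls, 0.544 and 0.449 after 2 h of H2O2, and 0.484 and 0.650 after 2 h of KCl. Phyhd1 had 2.89 and 2.17 TPM in the control, 14.6 and 14.9 after 2 h of H2O2, and 3.79 and 3.16 after 2 h of KCl. As a downstream gene, Lrrc8a was paired with Endog, 63699 bases away, with a DoG call of Endog in both libraries of 2 h of H2O2 and in no other. Read-in to Lrrc8a was called in 0 of 16 libraries and its estimate never passed 0.0443. Between Lrrc8c and Lrrc8d there was 1 DoG call and 0 read-in calls. Spc25, paired with Stk39 as the downstream gene 721786 bases away, had a DoG call in 7 of 16 libraries, controls included. Read-in to Stk39 was called in 0. Sgk1, paired as the upstream gene with H60b and Raet1 genes, had 1 DoG call and 0 read-in calls.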

How the data were processed

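The members and the related and marker genes were chosen with earlier results of these data known. The authors deposited expected counts and TPM per gene for RNA and footprints. The tools STAR, RSEM and Bowtie and the build mm10 stand in the submitters' processing notes, with no version or role; no source used here gives footprint length filters. The deposited expected counts were whole numbers, so no rounding changed them. The authors also deposited DoG and read-in calls (true or false) per gene pair and library, and a read-in estimate, a ratio. Of the footprint columns (counts and TPM together), 12 were heat columns that fitted no labelled sample and stayed out.

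Expected counts were tested with edgeR 4.0.16 (quasi-likelihood, TMM, filterByExpr, R 4.3.3) and Benjamini-Hochberg adjustment over all genes, separately for the heat RNA (12747 genes), the H2O2/KCl RNA (13256), the footprints (10545) and the footprint-by-RNA interaction (10480). The groups in a fit share its dispersion estimates. The fit was tested on simulated counts. Named genes were all 9 members, the related gene with the highest and the lowest called change in each of 6 RNA comparisons with a control, and the most similar gene of each member (average log2 CPM of at least 3). The alternatives were DESeq2 1.42.0, limma 3.58.1 on log2(TPM + 1) or voom, no count filter, a replicate block, only the groups compared, and each library left out. Promoter letters and positions are from RefSeq tables of GRCm38.p6; 8 of 9 members matched the promoter table.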

Additional observations from a re-analysis of the deposited data

Results flagged for a closer look

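Slc12a2 RNA moved in opposite directions at the 2 times of H2O2, with a log2 fold change against the control of 0.26 at 2 h and −1.07 at 7 h, and the difference between the times was itself tested (−1.32). The 2 h value is the one that lost its call without some libraries. Lrrc8a RNA moved oppositely at the 2 times of KCl, by −0.78 at 2 h and 0.57 at 7 h, with a tested difference of 1.35.

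Another 3 genes, a channel subunit and the paralogous kinases, moved oppositely in the 2 heat conditions, which differ in both temperature and time. Stk39 changed by −1.01 at 44 °C and 1.04 at 42 °C (difference 2.04), Lrrc8d by −0.56 and 0.19 (difference 0.75), and Oxsr1 by −0.14 and 0.53 (difference 0.68). The Lrrc8d value at 42 °C and the Oxsr1 value at 44 °C were not called on the log2(TPM + 1) scale.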

How the results depend on the processing

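Of 69 member changes called in RNA, 60 kept their call under every alternative run, 8 lost it in at least 1 and 1 changed sign in 1. For footprints 4 of 12 and for translational efficiency 3 of 9 were kept throughout. Another 23 member values (17 in RNA, 2 in footprints, 4 in efficiency) were not called but passed the threshold in at least 1 alternative, and 76 passed it in none. Footprint depth, down to 7 counts for Stk39, limits the footprint and efficiency results. The number of members called moved by more than 1.5 times in these cases. Footprints at 2 h of KCl gave 1 in place of 2 with DESeq2, with limma on log2(TPM + 1) and with only the groups compared, and 1 to 1 without single libraries. Footprints at 7 h of H2O2 gave 1 in place of 3 with limma on log2(TPM + 1), and 1 to 2 without single libraries. Efficiency at 7 h of KCl gave 3 with DESeq2 (1 of them, Lrrc8d, higher), 2 with no count filter and 2 with the replicate block, in place of 1, and 1 to 2 without single libraries. Leaving out single libraries gave 0 to 1 for footprints at 7 h of KCl (1 with all), 0 to 2 for footprints from 2 h to 7 h of KCl (3), 1 to 3 for efficiency at 2 h of H2O2 (3), 0 to 1 at 7 h of H2O2 (1) and 1 to 4 at 2 h of KCl (4). In RNA, samples with the same replicate number did not deviate together throughout (correlations −0.03 to 0.12 with heat, −0.05 to 0.05 otherwise). The numbers were therefore not taken as pairs in RNA. In footprints the 4 correlations with 2 h of H2O2 were −0.38 to −0.05 and the 6 among the other groups 0.20 to 0.42. The main footprint fit also left the numbers unpaired, a choice that these correlations do not settle. With the replicate block each other count of members stayed within 1.5 times. The block added calls for Lrrc8a efficiency at 7 h of KCl (−0.90, adjusted p = 0.0469) and Oxsr1 footprints from 2 h to 7 h of KCl (0.72, adjusted p = 0.0324), and in RNA for Wnk1 from 2 h to 7 h of KCl (−0.20, adjusted p = 0.0366) and, for H2O2 against KCl, Slc12a2 at 2 h (−0.21, adjusted p = 0.0191) and Lrrc8c at 7 h (0.17, adjusted p = 0.0351). Crossing the numbers at 2 h of H2O2 in that block, chosen after seeing the data, left 0 members called in footprints against the control and raised the genes called from 187 to 692, with 1 more member called from 2 h to 7 h of H2O2.

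Signs turned for values near 0. On log2(TPM + 1) the median of all genes at 42 °C against the control was −0.16. At 42 °C Slc12a4 went from 0.01 to −0.0003458 with no filter, −0.0096 to 0.022 without single libraries (lowest without 42 °C replicate 1) and −0.18 on log2(TPM + 1), and Lrrc8d from 0.19 to −0.0009411 on log2(TPM + 1). Sgk1 at 42 °C went from −0.01 to −0.050 to 0.028 without single libraries (0.028 without 42 °C replicate 2 and 0.014 without control replicate 1). Slc12a2 at 42 °C against 44 °C went from 0.10 to −0.13 on log2(TPM + 1), where the median of all genes was −0.20. For H2O2 against KCl, Lrrc8c at 2 h (0.05) ranged without single libraries from −0.053 (without H2O2 replicate 2) to 0.15 and was 0.30 on log2(TPM + 1), and Lrrc8a at 7 h (−0.12) from −0.27 to 0.0074 without H2O2 replicate 1. The cause was not tested.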
